A study of Mus musculus with 20 samples.

Results

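The 10 glycolysis genes Hk2, Gpi1, Pfkl, Aldoa, Tpi1, Gapdh, Pgk1, Eno1, Pkm and Ldha were followed in microglia, the resident macrophages of the brain. They were chosen by symbol, 1 gene for nearly every step from glucose to lactate, out of 54838 counted genes. All 10 were among the 12680 genes that passed the filter on low counts. The 20 libraries came from frontal cortex of mice at postnatal day 40, 1 mouse each, with 1000 cells sorted per mouse on high CD11b and low CD45. The labels name 2 mice hC4A/A, 5 hC4A/-, 4 hC4B/-, 5 C4-/- and 4 WT (wild type), where C4 is a complement protein and hC4A and hC4B are its human genes in transgenic mice. The labels give no strain, sex, promoter of the human genes or litter for any group, and they do not spell out what stands after the slash. Template-switched, amplified cDNA was read out, so fewer cells and less RNA per cell cannot be told apart.

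Glycolysis splits glucose into pyruvate in the cytosol and yields ATP without oxygen, and lactate dehydrogenase then turns pyruvate into lactate. Hexokinase and phosphofructokinase are its main controlled entry steps, followed by aldolase and the enzymes of the trioses. Microglia are known to turn to glycolysis when inflammatory signals activate them, and the oxygen-sensing factor HIF-1 is known to drive many of these genes.

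Several facts of the libraries bear on all values. Gene counts summed to 855099 to 2735181 per library, of which 13.3% to 81.0% fell on satellite-like genes. The labels were not borne out by mouse C4b, which held 0, 0, 2 and 0 counts in WT and 4 to 428 in each of the other 16 libraries, so every genotype name below is only that of the label. The WT files also carry a different style of sample name, so any difference from WT cannot be told apart from a separate handling of those libraries. C4-/- 3, hC4B/- 2, hC4B/- 3 and hC4A/A 2 stood apart with 27178 to 30907 detected genes, against 11348 to 23912 in the other 16, and are called the broad libraries. All 18 microglia markers were detected in each library, and their sum was 5475 to 11359 CPM in hC4A/A, 7944 to 14795 in hC4A/-, 6940 to 13681 in hC4B/-, 9438 to 13513 in C4-/- and 9214 to 13355 in WT. The summed immediate early and dissociation genes, which cell isolation is known to induce, were 514 to 1594 CPM in hC4A/A, 1286 to 2530 in hC4A/-, 602 to 1890 in hC4B/-, 802 to 1259 in C4-/- and 1759 to 2059 in WT, and their part in the results was not tested. CPM is the usual unit of counts relative to the library's total, here with totals scaled by the TMM method.

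Hk2, the hexokinase that traps glucose in the cell by phosphorylating it, dominated the group in most libraries. It stood at 709.7 and 59.6 CPM in hC4A/A, 609, 594, 421, 739.7 and 1025 CPM in hC4A/-, 503, 38.6, 31.99 and 319 CPM in hC4B/-, 292, 825, 73.4, 587 and 209 CPM in C4-/- and 582, 537, 487 and 497 CPM in WT. The 4 lowest values were those of the 4 broad libraries, at 31.99 to 73.4 CPM, and the other 16 libraries lay between 209 and 1025 CPM in every genotype. By median CPM Hk2 ranked at place 165 of the 12680 genes tested, whereas the other members ranked between place 1941 (Gapdh) and place 5910 (Pgk1). For comparison within the same cells, the median of Hk2 was 500.02 CPM and that of the microglia receptor P2ry12 was 473 CPM. These values and the ranks are not divided by mRNA length, which is 5513 bases for Hk2. They therefore do not compare amounts of mRNA between genes. The deposited counts do not show which part of Hk2 the reads came from, and an antisense gene on its other strand, Gm17034, held 74 counts against 18084 for Hk2 over all libraries.

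The other members lay in a band well below the median of Hk2. Gapdh, which oxidises glyceraldehyde phosphate, ranged from 25.3 to 119 CPM over the 20 libraries with a median of 40.6 CPM. Ldha, the lactate dehydrogenase subunit, had a median of 36.8 CPM (16.9 to 127), and Aldoa, the aldolase that splits the sugar, 33.7 CPM (14.6 to 116). Pkm, the pyruvate kinase that ends the pathway, had a median of 24.9 CPM (5.49 to 64.6). Eno1, the enolase before it, had 23.0 CPM (9.53 to 178), and Gpi1, the isomerase after hexokinase, 21.3 CPM (5.91 to 93.2). Tpi1, which interconverts the trioses, spread the most, with a median of 12.4 CPM and values from 1.21 to 402 CPM. Pfkl, a phosphofructokinase subunit, had a median of 9.73 CPM (5.59 to 40.2), and Pgk1, a kinase that makes ATP, was lowest with 6.24 CPM (1.53 to 20.1).

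**Figure D1:**
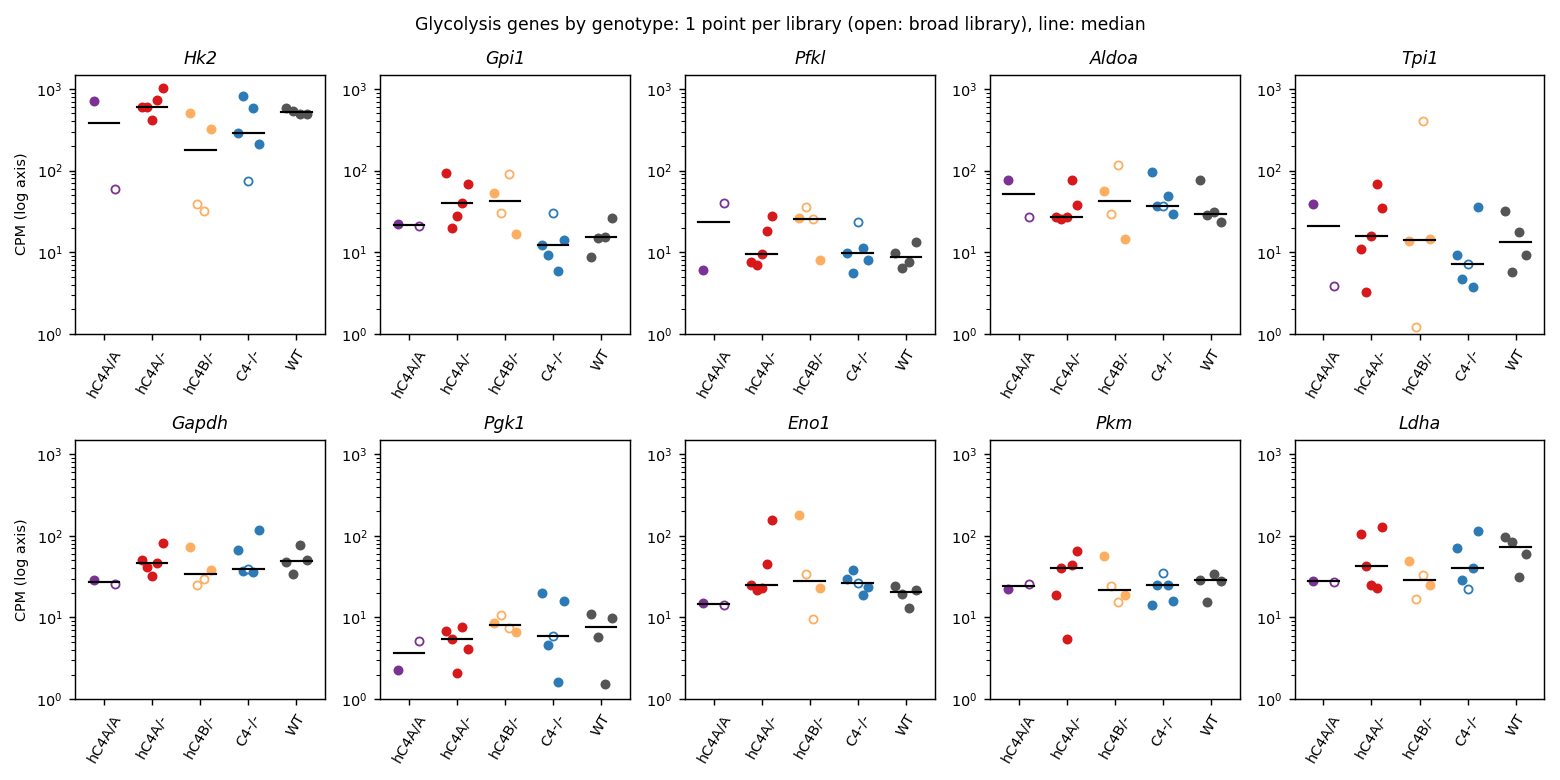
CPM of each of the 10 genes (log axis) by labelled genotype, 1 point per library, with open points for the 4 broad libraries and a line at the group's median. Hk2 lies between 209 and 1025 CPM in all 16 other libraries and at 31.99 to 73.4 CPM in the 4 broad ones, and single high points stand out for Tpi1 in hC4B/- and for Eno1 in hC4A/- and hC4B/-.

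Per kb of mRNA length, the scale on which genes can be compared, the order of the median levels was Hk2 (90.7 CPM per kb), Gapdh (28.6), Aldoa (21.7), Ldha (20.3), Eno1 (11.3), Pkm (10.3), Tpi1 (7.69), Gpi1 (7.40), Pgk1 (3.42) and Pfkl (2.61). Hk2 exceeded Gapdh in 15 of 20 libraries and made up 38.9% of the summed level of the 10 genes in the median library, with a range of 1.37% to 58.6%. Of the other neighbours, Gpi1 exceeded Pgk1 in 17 of 20 libraries and Ldha exceeded Eno1 in 14. Gapdh exceeded Aldoa in 13, Pkm exceeded Tpi1 in 13, Aldoa exceeded Ldha in 12 and Eno1 exceeded Pkm in 11. Tpi1 exceeded Gpi1 in 10 and Pgk1 exceeded Pfkl in 9, so these neighbours had no steady order.

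This order depends on sequence that glycolytic genes share with other annotated genes, many of them processed copies. Reads that map to several places stayed out of the deposited counts. Each member's longest coding transcript (GENCODE M21, GRCm38) was therefore cut into all windows of 50 bases, and each window was looked up on both strands in the annotated transcripts of every other gene. For Hk2 0% of the windows occurred elsewhere, for Pfkl 0.0543%, for Tpi1 7.51%, for Aldoa 13.5% and for Ldha 16.6%. The share was 25.3% for Gpi1, 34.4% for Pkm, 68.0% for Pgk1, 72.2% for Eno1 and 82.5% for Gapdh, whose windows were found in 222 other genes. The most widely shared coding window of Gapdh is shown because it is a stretch where a read of this length could not be assigned. It covers bases 655 to 704 of the 1420-base mRNA (gene on the minus strand of chromosome 6) and occurs letter for letter in 84 other annotated genes.
Gapdh: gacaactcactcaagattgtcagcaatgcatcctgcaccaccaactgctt

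Dividing by the unshared windows in place of the length, a scale added after the data were seen, put Gapdh above Hk2. Gapdh then had a median of 169 CPM per 1000 unshared windows and Hk2 91.5, and Gapdh exceeded Hk2 in 19 of 20 libraries. Eno1 came next with 41.8, then Aldoa (26.0), Ldha (25.0), Pkm (15.96), Pgk1 (10.96), Gpi1 (10.1), Tpi1 (8.57) and Pfkl (2.64). The read length is not given in the sources used here and copies outside the annotation were not searched, so these values mark how far the order can move and are not corrected levels. Differences between genotypes for 1 gene are not touched by either scale.

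**Figure D2:**
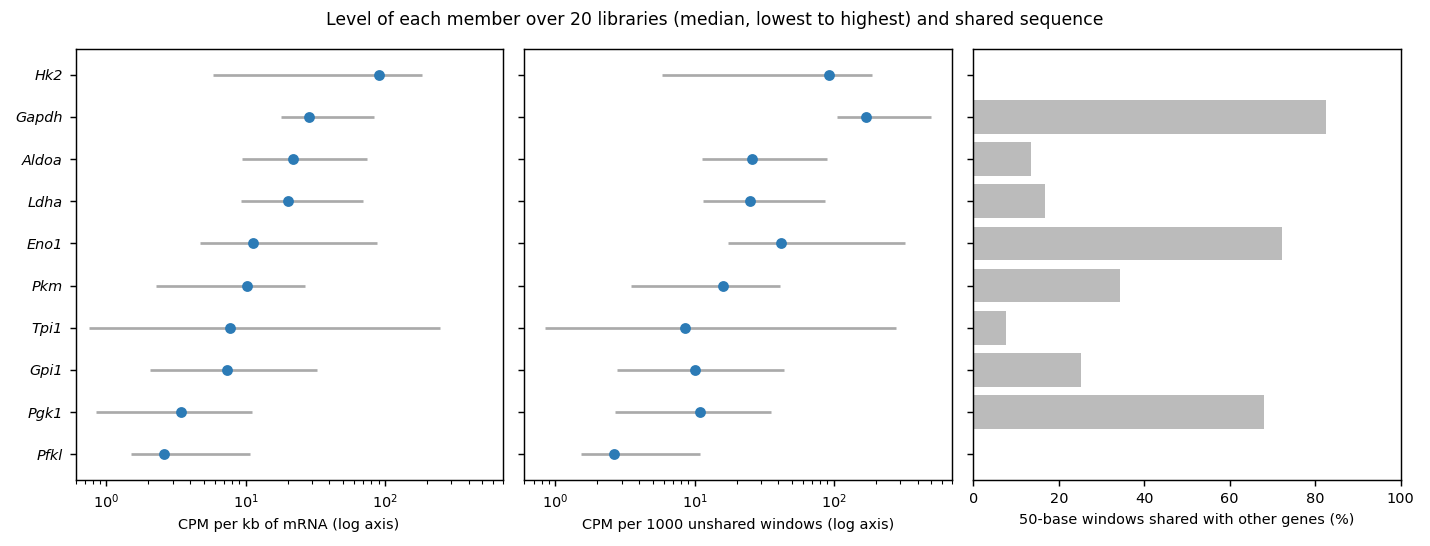
Median level over the 20 libraries, with bars from the lowest to the highest library, per kb of mRNA (left) and per 1000 unshared windows of 50 bases (middle, both log axes), and the percentage of windows that other annotated genes hold (right). Gapdh moves from 28.6 to 169 and passes Hk2 at 91.5, while Hk2 and Pfkl share next to nothing.

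No member passed the test in any comparison of genotypes. At an adjusted p under 0.05 (edgeR quasi-likelihood test, Benjamini-Hochberg over all genes), 0 of 10 members and 0% of the 12680 genes were called in each of the 9 contrasts. An F test over the 5 genotypes called 0 of 10 members and 0.118% of all genes. At an unadjusted p under 0.05 the F test held Tpi1 (edgeR adjusted p = 0.383) and Gpi1 (adjusted p = 0.397), 2 of 10 members against 12% of all genes.

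Against WT, 0 of 10 members had an unadjusted p under 0.05 in hC4A/A (8.41% of all genes did), 1 in hC4A/- (7.51%), 2 in hC4B/- (13.1%) and 0 in C4-/- (8.55%). Against C4-/-, the counts were 0 in hC4A/A (2.17% of all genes), 1 in hC4A/- (10.7%) and 2 in hC4B/- (4.52%). In hC4A/A against hC4A/- 0 members were below that p (11.5% of all genes), and in hC4A/- against hC4B/- 0 (16.7%). All 6 of these member values were higher in the group with human C4, and they belong to Gpi1 and Tpi1. The contrasts share control libraries, so these are not separate observations.

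The medians of the 10 log2 fold changes are given as a description, beside those of all genes. Against WT the members' median was -0.28 in hC4A/A (0.18 for all genes), 0.38 in hC4A/- (-0.05 for all genes), 0.34 in hC4B/- (0.18 for all genes) and 0.00 in C4-/- (0.33 for all genes). Against C4-/- it was 0.01 in hC4A/A (-0.02 for all genes), 0.43 in hC4A/- (-0.32 for all genes) and 0.23 in hC4B/- (-0.03 for all genes). It was -0.67 in hC4A/A against hC4A/- (0.17 for all genes) and -0.06 in hC4A/- against hC4B/- (-0.14 for all genes). The median in hC4B/- against WT was 0.81 with only these 2 genotypes in the fit and -0.06 with no filter on low counts. It ran from 0.15 to 0.77 over left-out libraries. The median in hC4A/A against C4-/- was -0.70 without hC4A/A 1. Members above 0 numbered between 2 of 10 in hC4A/A against hC4A/- (54.3% of all genes were above 0) and 7 of 10. The 7 of 10 were reached in hC4A/- against C4-/- (38.3% of all genes) and in hC4B/- against WT (54.6%).

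**Figure D3:**
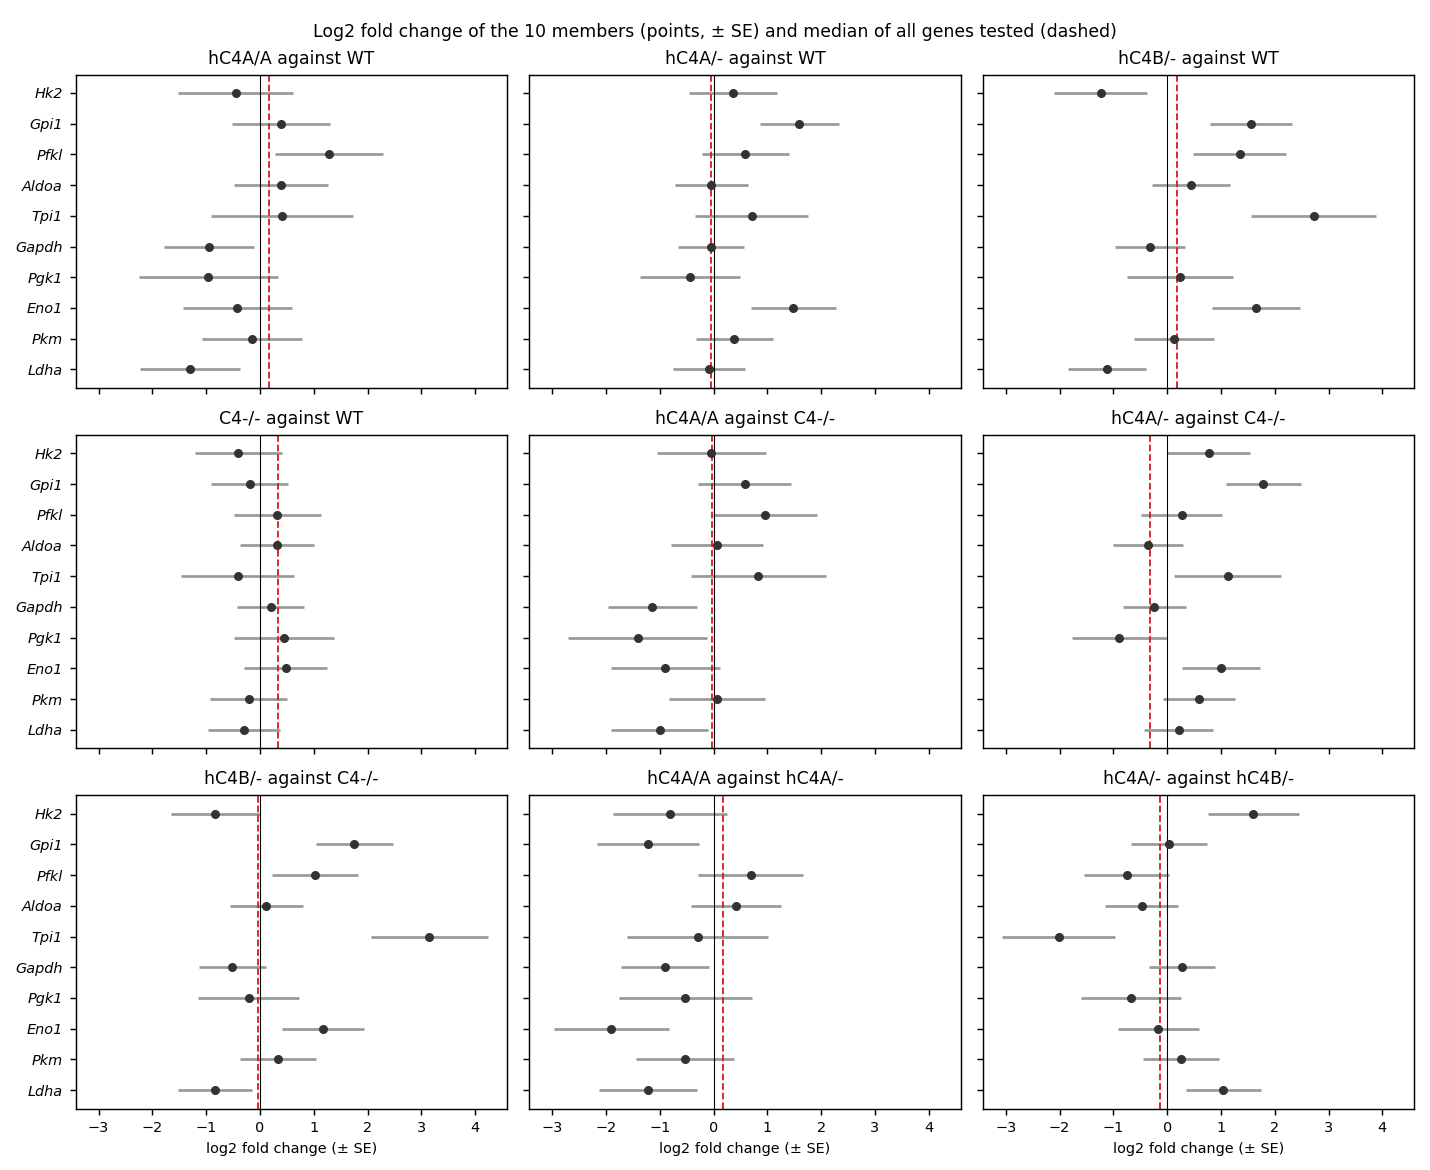
Log2 fold change of each gene (points, with ± SE) in the 9 contrasts, and the median of all 12680 genes as a dashed line. The points of Gpi1 lie between 1.56 and 1.79 in hC4A/- and hC4B/- against WT and C4-/-, and the widest bars belong to hC4A/A with its 2 libraries.

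Gpi1, which isomerises the product of hexokinase, came closest to a pattern shared by genotypes. It stood at 21.9 and 20.7 CPM in hC4A/A, 93.2, 19.9, 27.5, 39.8 and 67.7 CPM in hC4A/-, 53.8, 30.2, 91.9 and 16.8 CPM in hC4B/-, 12.1, 9.32, 30.1, 5.91 and 13.98 CPM in C4-/- and 8.68, 14.9, 15.3 and 26.4 CPM in WT. The 5 hC4A/- libraries all lay above 4 of the 5 C4-/- libraries, and the fifth, at 30.1 CPM, was the broad C4-/- 3. Gpi1 averaged 49.6 ± 30.4 CPM in hC4A/- (SD, n = 5) and 14.3 ± 9.37 CPM in C4-/- (n = 5), a log2 fold change of 1.79 ± 0.69 (SE, unadjusted p = 0.0141, edgeR adjusted p = 0.436). Against WT, with 16.3 ± 7.37 CPM (n = 4), the log2 fold change of hC4A/- was 1.60 ± 0.74 (adjusted p = 0.630).

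In hC4B/- Gpi1 averaged 48.2 ± 32.9 CPM (n = 4), with a log2 fold change of 1.75 ± 0.72 against C4-/- (adjusted p = 0.990) and of 1.56 ± 0.76 against WT (adjusted p = 0.381). Its difference between hC4A/- and hC4B/- was 0.04 ± 0.71 on the log2 scale. The 2 hC4A/A libraries lay within the range of hC4A/-, with a log2 fold change of -1.21 ± 0.95 against it (adjusted p = 0.684). In all 28 other settings tried the log2 fold change of Gpi1 stayed above 0 in these 4 contrasts with WT and C4-/-, and in none did it pass. Without the broad libraries it was 2.47 in hC4A/- against C4-/-, 1.61 in hC4A/- against WT, 2.04 in hC4B/- against C4-/- and 1.18 in hC4B/- against WT. The lincRNA gene Gm26762 overlaps Gpi1 on the other strand held 30 counts in all, against 1113 for Gpi1.

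Tpi1, the triose phosphate isomerase, had the largest fold changes, and a single library carried them. It stood at 38.4 and 3.89 CPM in hC4A/A, 11.04, 3.22, 15.8, 68.5 and 34.4 CPM in hC4A/-, 13.7, 1.21, 402 and 14.6 CPM in hC4B/-, 9.20, 4.66, 7.21, 3.76 and 35.9 CPM in C4-/- and 32.04, 5.69, 17.6 and 9.34 CPM in WT. The 402 CPM were 591 counts in the broad library hC4B/- 3, against 68.5 CPM in the next highest library, and the other 3 hC4B/- libraries lay within the range of the other genotypes or below it. The log2 fold change of hC4B/- was 3.14 ± 1.09 against C4-/- (adjusted p = 0.990) and 2.73 ± 1.16 against WT (adjusted p = 0.361). Without hC4B/- 3 these were 0.11 and -0.52. For hC4A/- against hC4B/- it was -2.02 ± 1.04 (adjusted p = 0.321), and 1.26 without that library. In hC4A/- against C4-/- Tpi1 averaged 26.6 ± 26.1 and 12.2 ± 13.5 CPM, a log2 fold change of 1.12 ± 1.00 (adjusted p = 0.685).

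Eno1, the enolase, was high in 1 library of each of 2 genotypes. It stood at 14.8 and 14.3 CPM in hC4A/A, 24.8, 21.5, 22.7, 45.1 and 158 CPM in hC4A/-, 178, 33.8, 9.53 and 22.7 CPM in hC4B/-, 29.3, 38.2, 26.2, 18.8 and 23.3 CPM in C4-/- and 24.0, 19.2, 13.03 and 21.5 CPM in WT. Apart from hC4A/- 5 and hC4B/- 1 no library exceeded 45.1 CPM, and neither of these 2 is a broad library. Against WT the log2 fold change was 1.48 ± 0.79 in hC4A/- (adjusted p = 0.722), 1.65 ± 0.82 in hC4B/- (adjusted p = 0.385) and 0.48 ± 0.77 in C4-/- (adjusted p = 0.867). Leaving out the high library gave 0.62 in hC4A/- and 0.19 in hC4B/-. Against C4-/- it was 1.00 ± 0.72 in hC4A/- (adjusted p = 0.601) and 1.17 ± 0.76 in hC4B/- (adjusted p = 0.990), the second of which turned to -0.29 without hC4B/- 1. Without hC4A/- 5 the first was 0.32. Both hC4A/A libraries lay below all 5 of hC4A/-, with a log2 fold change of -1.90 ± 1.07 (adjusted p = 0.511), which was -1.11 without hC4A/- 5.

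The averages of Hk2 depended on how many broad libraries a genotype held. It averaged 678 ± 225 CPM in hC4A/- (SD, n = 5) and 223 ± 229 CPM in hC4B/- (n = 4), a log2 fold change of 1.60 ± 0.85 (adjusted p = 0.331), which was 0.60 without the broad libraries. In C4-/- it averaged 397 ± 304 CPM, against 526 ± 43.3 CPM in WT (log2 fold change -0.40 ± 0.81, adjusted p = 0.899). The 4 WT libraries were the most even group, between 487 and 582 CPM. Over the 4 broad libraries the summed astrocyte markers were 56.5 to 119 CPM, against 163 to 737 CPM in the other 16, and the summed lymphocyte markers 5.24 to 11.7 CPM, against 0 to 5.18 CPM. Oligodendrocyte markers summed to 48.5 to 79.6 CPM in the broad libraries and 98.2 to 363 CPM in the others, and 29.0% to 42.1% of reads were unmapped, against 14.8% to 29.5%. Of the 18 microglia markers, 12 had a lower median in the broad libraries, such as Fcrls with 340 CPM against 2727 CPM, and 6 a higher one, such as Csf1r with 1737 CPM against 525 CPM. The part of such differences in the level of Hk2 was not tested. Among the other members Pfkl ran the other way, with 23.6, 36.2, 25.2 and 40.2 CPM in the broad libraries and 5.59 to 27.9 CPM in the other 16, while Gapdh lay at 25.3 to 39.3 CPM against 28.4 to 119 CPM and Ldha at 16.9 to 33.3 CPM against 22.8 to 127 CPM.

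Ldha and Gapdh were low and close together in the 2 hC4A/A libraries, 1 broad and 1 not. Ldha, which makes lactate, stood at 28.1 and 27.2 CPM in hC4A/A, 104, 43.0, 24.7, 22.8 and 127 CPM in hC4A/-, 49.1, 16.9, 33.3 and 24.8 CPM in hC4B/-, 71.9, 28.9, 22.3, 40.3 and 114 CPM in C4-/- and 96.5, 84.0, 31.4 and 60.1 CPM in WT. Gapdh stood at 28.4 and 25.9 CPM in hC4A/A, 50.4, 41.9, 32.3, 46.2 and 82.7 CPM in hC4A/-, 73.5, 25.3, 29.9 and 38.0 CPM in hC4B/-, 67.3, 37.3, 39.3, 36.5 and 119 CPM in C4-/- and 47.4, 34.2, 77.4 and 49.97 CPM in WT. Both hC4A/A libraries lay below all WT libraries for both genes. Ldha had a log2 fold change of -1.30 ± 0.93 against WT (adjusted p = 0.709) and -1.22 ± 0.91 against hC4A/- (adjusted p = 0.669). Gapdh had -0.94 ± 0.83 against WT (adjusted p = 0.777) and -1.14 ± 0.82 against C4-/- (adjusted p = 1.00). For Ldha in hC4A/- against hC4B/- the log2 fold change was 1.04 ± 0.69 (adjusted p = 0.451).

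Groups that do not overlap are common with 2 libraries on one side. Of the 10 members, 2 did not overlap in hC4A/A against WT (Gapdh and Ldha, 11.2% of all genes), 2 in hC4A/A against C4-/- (Eno1 and Gapdh, 4.26%) and 2 in hC4A/A against hC4A/- (Eno1 and Gapdh, 9.17%). In the other contrasts 0 members failed to overlap, against 1.4% of all genes in hC4A/- against WT, 3.75% in hC4B/- against WT, 1.41% in C4-/- against WT, 0.97% in hC4A/- against C4-/-, 0.741% in hC4B/- against C4-/- and 2.49% in hC4A/- against hC4B/-.

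Pfkl, Pgk1, Pkm and Aldoa gave the remaining values. Pfkl averaged 23.1 ± 24.1 CPM in hC4A/A and 9.29 ± 3.06 CPM in WT (log2 fold change 1.28 ± 1.00, adjusted p = 0.737), from 40.2 CPM in the broad hC4A/A 2 and 6.13 CPM in hC4A/A 1. Without the broad library it was -0.56. In hC4A/- against WT Pfkl had a log2 fold change of 0.59 ± 0.81 (adjusted p = 1.00). Pgk1 rested on 2 to 35 counts per library, with a log2 fold change of -1.41 ± 1.29 in hC4A/A against C4-/- (adjusted p = 1.00) and of 0.45 ± 0.94 in C4-/- against WT (adjusted p = 0.904). Aldoa and Pkm were the flattest, with F test p values of 0.942 and 0.919. Aldoa stood at 76.1 CPM or above in hC4A/A 1, hC4A/- 4, hC4B/- 3, C4-/- 1 and WT 1, that is in 1 library of every genotype, and Pkm ranged over 5.49 to 64.6 CPM within hC4A/- alone.

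The spread between libraries of a genotype differed among members. The biological coefficient of variation was 0.649 for Gapdh, 0.705 for Ldha, 0.713 for Aldoa, 0.727 for Pkm, 0.729 for Gpi1, 0.780 for Eno1, 0.790 for Hk2, 0.794 for Pfkl, 0.876 for Pgk1 and 1.02 for Tpi1. The median over the 12680 genes was 1.04, a value not matched for level. Gapdh, often used as a steady standard, thus had the lowest coefficient of the 10 and still spanned 25.3 to 119 CPM.

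Isozymes of the same step were set against each other per kb of mRNA, for 4 members: Hk2, Pfkl, Aldoa and Ldha. Hk2 made up a median of 96.0% of the summed Hk1, Hk2 and Hk3 level. Aldoa made up 97.5% of Aldoa and Aldoc, and Pfkl 85.4% of Pfkl, Pfkm and Pfkp, the last on only 8 to 93 counts per library. Ldha was the exception, at 22.7% of Ldha and Ldhb (range 6.28% to 47.0%). Ldhb, whose subunit is known to favour turning lactate into pyruvate, was thus above Ldha per kb in all 20 libraries. Per 1000 unshared windows the share of Ldha was 20.3% (5.49% to 43.5%), so Ldhb stayed above Ldha on that scale. Over all libraries Ldhb had a median of 113 CPM (22.03 to 354).

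Of 36 tests of isozyme shares (4 shares in 9 contrasts, exact permutation tests, 2-sided), 0 passed after adjustment. The hexokinase share was narrowest in hC4A/-, with Hk2 at 99.5%, 99.0%, 98.7%, 99.6% and 98.4%, against 94.8%, 97.6%, 97.1% and 94.6% in WT. All hC4A/- values lay above all WT values, with means of 99.0% ± 0.513 (SD, n = 5) and 96.0% ± 1.54 (SD, n = 4), an exact p of 0.00794 and an adjusted p of 0.143. That p is the smallest which 126 arrangements of 9 libraries can give. The same p was reached against hC4B/-, whose shares were 97.4%, 43.3%, 48.4% and 97.7%, the middle 2 from broad libraries. Behind these shares stood 1 to 6 counts of Hk1 and 1 to 25 of Hk3 per hC4A/- library, and 1 to 11 counts of Hk1 and 9 to 48 of Hk3 per WT library. Over the broad libraries the share of Hk2 was 43.3% to 56.2%, and over the other 16 it was 89.7% to 99.6%. Hk3 is known as a hexokinase of neutrophils and other myeloid cells. The summed neutrophil markers were 47.9 to 70.9 CPM in hC4A/A, 0.537 to 114 CPM in hC4A/- and 0 to 176 CPM in hC4B/-. They were 0 to 146 CPM in C4-/- (median 0.665) and 102 to 1424 CPM in WT. In C4-/- the share of Hk2 was 89.7% to 99.5% outside the broad C4-/- 3. The part of neutrophil markers in the share was not tested.

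**Figure D4:**
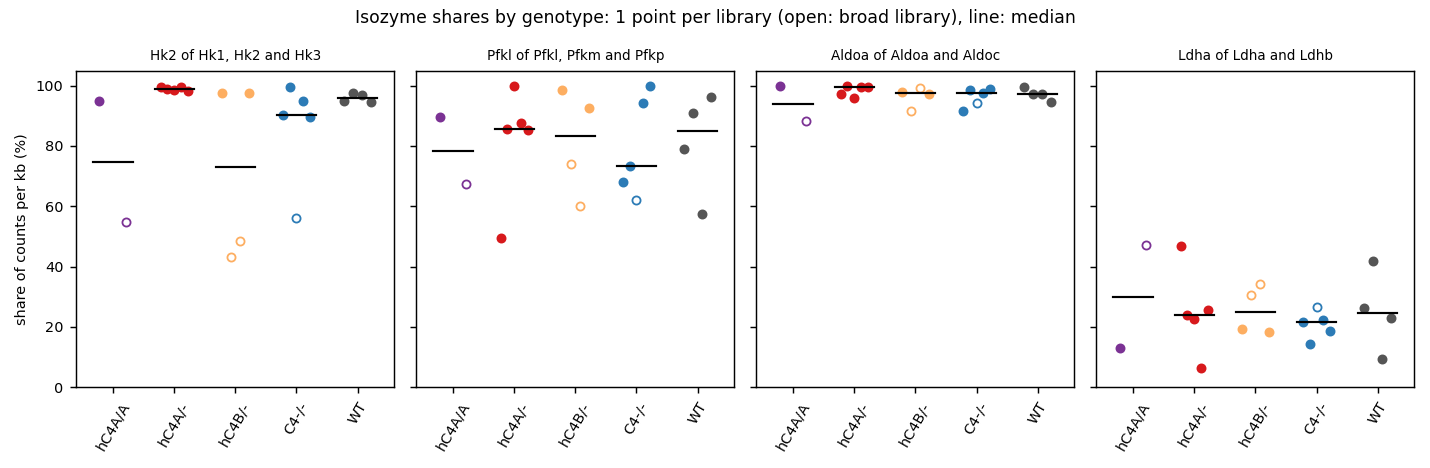
Share of each member in the summed counts per kb of its isozymes (%), by labelled genotype, with 1 point per library, open points for broad libraries and a line at the median. Hk2 and Aldoa hold nearly the whole of their sets outside the broad libraries, whereas Ldha stays between 6.28% and 47.0%.

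Most pairs of members were positively correlated between libraries, and few passed the test. Over the 16 libraries that were not broad, Spearman's rho of log2 CPM was above 0 in 36 of the 45 pairs, with a median of 0.24 and a range of -0.35 to 0.61. These pairs share the depth and scaling of each library, and the share of pairs above 0 among all genes was not worked out. The highest rank correlation joined Gapdh and Ldha (rho = 0.61, permutation p = 0.0144, adjusted p = 0.501, and Pearson's r = 0.55, permutation p = 0.0274, adjusted p = 0.222), and r was 0.30 without the 2 libraries farthest from the median of Gapdh. Hk2 and Pkm, the first and the last kinase of the pathway, had rho = 0.54 and r = 0.55 (permutation p = 0.0337 and 0.0296, adjusted p = 0.501 and 0.222), and r was 0.50 without the 2 libraries farthest from the median of Hk2. By rank, 0 of 45 pairs passed after adjustment. By Pearson's r Pfkl and Eno1 passed (r = 0.82, permutation adjusted p = 0.0355, with rho = 0.49), but r was 0.38 without hC4A/- 5 and hC4B/- 1, so this Pearson correlation rests on these 2 libraries. With deviations from the genotype means in place of levels, rho was above 0 in 41 of 45 pairs, with a median of 0.32 and a highest value of 0.73, and 12 pairs had an unadjusted p under 0.05, against 3 with levels. Of these, 3 pairs passed by rank, with permutation adjusted p values of 0.0472: Pfkl with Eno1 (rho = 0.73), Gpi1 with Gapdh (0.71) and Hk2 with Eno1 (0.70). Deviations within a genotype depend on each other, while permutation takes them as separate values. The p values from deviations may therefore be too small, and no conclusion is drawn from these 3 pairs.

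A few libraries were high for several members at once. Of the 10 genes, 7 had a value among the 3 highest of the 16 in hC4A/- 5 (Hk2, Gpi1, Pfkl, Gapdh, Eno1, Pkm and Ldha), 6 in hC4A/- 4 (Hk2, Pfkl, Aldoa, Tpi1, Eno1 and Pkm), and 4 each in hC4B/- 1 (Gpi1, Pfkl, Eno1 and Pkm) and in C4-/- 5 (Tpi1, Gapdh, Pgk1 and Ldha). Of all 12680 genes, 27.7% had such a value in hC4A/- 5, 13.9% in hC4A/- 4, 17.1% in hC4B/- 1 and 30.9% in C4-/- 5. The 4 of 10 members in C4-/- 5 lay near that library's share, so it was not high for the members in particular. Not all hC4A/- libraries were high for several members, since hC4A/- 2 and hC4A/- 3 had 0 such genes. The summed CPM of the 10 members was 599 ± 494 in hC4A/A (SD, n = 2), 1016 ± 393 in hC4A/- (n = 5), 628 ± 335 in hC4B/- (n = 4), 660.03 ± 264 in C4-/- (n = 5) and 781 ± 92.3 in WT (n = 4). By Spearman's rho with the mean log2 CPM of the 10 genes over the same 16 libraries, the most similar of 5955 other genes were Hdac1 (0.87), Cd63 (0.87), Pld4 (0.86), Vps28 (0.85) and Exosc7 (0.84), given as a description.

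**Figure D5:**
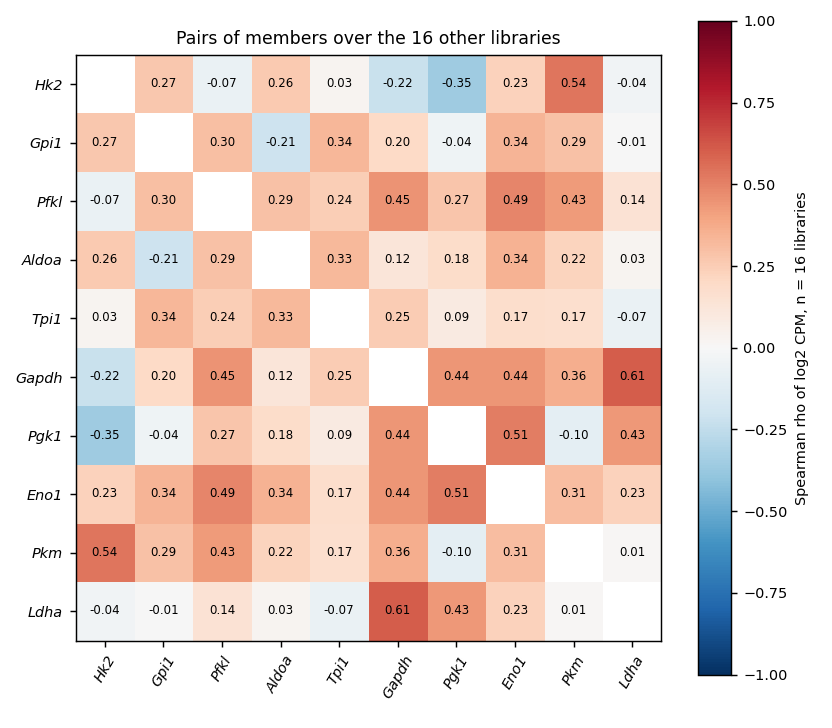
Spearman's rho of log2 CPM for each pair of the 10 genes over the 16 libraries that were not broad, from blue (negative) to red (positive). The strongest pair is Gapdh with Ldha at 0.61, and the pairs spread from there down to -0.35 around a median of 0.24.

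The surrounding pathway gave no call either. In each list, 0 genes passed the adjusted threshold in each direction in all 9 contrasts and in the F test. Of 19 other glycolytic isozymes and steps 11 were tested, and summed over the 9 contrasts 7 values were higher and 8 lower at an unadjusted p under 0.05. These are 15.2% of the list's 99 values, against 9.24% of the values of all genes in the same contrasts. The smallest F test values there were those of Bpgm, the bisphosphoglycerate mutase (edgeR adjusted p = 0.370), and of the neuronal enolase Eno2 (adjusted p = 0.392). Bpgm was between 0 and 2.38 CPM in hC4A/- and between 0 and 1.73 CPM in C4-/-, with its highest values in WT 4 (32.1 CPM) and hC4B/- 4 (29.2 CPM). Eno2 was highest in hC4B/- 3 (21.1 CPM), C4-/- 2 (18.6 CPM) and hC4A/A 2 (12.96 CPM), and reached 0.767 CPM at most in WT. Pgam1, the mutase between Pgk1 and Eno1, held only 100 counts over all libraries, with 41.5% of its windows shared with other genes.

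Of 10 glucose and lactate transporters 8 were tested, with 3 higher and 3 lower values at an unadjusted p under 0.05, or 8.33% (9.24% for all genes). The fructose transporter Slc2a5, known as a microglial marker, had a median of 29.1 CPM (7.83 to 78.7), while the glucose transporters had 9.29 CPM (Slc2a1) and 6.68 CPM (Slc2a3). Per kb of mRNA the medians were 9.22 CPM for Slc2a5, 2.85 for Slc2a1 and 1.69 for Slc2a3. The lactate transporter genes Slc16a1 (F test adjusted p = 0.429) and Slc16a7 (adjusted p = 0.549) had the smallest values of the F test. Of 20 regulators of glycolytic flux 14 were tested, with 0 higher and 4 lower, or 3.17% (9.24% for all genes). Their smallest F test values were those of Pdk1, a kinase that restrains pyruvate dehydrogenase (adjusted p = 0.507), and Pdhx, a subunit of that complex (adjusted p = 0.511). All 7 genes of the pentose phosphate pathway, which branches off after hexokinase, were tested, with 0 higher and 1 lower, or 1.59%, and their smallest F test values were those of Rpe (adjusted p = 0.528) and Rpia (adjusted p = 0.841).

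The HIF pathway was described because HIF-1 is a known regulator of these genes. Of its 21 listed genes 12 were tested, and 9 were too low, among them the classical targets Vegfa (25 counts in all), Car9 (22) and Adm (15). Summed over the contrasts, 1 value was higher and 3 were lower at an unadjusted p under 0.05, or 3.70% (9.24% for all genes). Bnip3, a mitophagy receptor and HIF target, had the smallest F test value of the list (adjusted p = 0.275), with 160 of its 260 counts in hC4B/- 3, the library that also held the Tpi1 counts. The inhibitor Hif1an followed (adjusted p = 0.623). Hif1a itself had a median of 11.1 CPM (0.967 to 47.5), and Bnip3l, another HIF target, was the most abundant of the list with 227 CPM (9.65 to 541).

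Start regions of 3 members are shown, that of Hk2 as the most abundant and those of Gapdh and Ldha as the pair with the highest rank correlation. Each is the 250 bases before the RefSeq start of the gene on GRCm38.p6, in the direction of the gene. Capitals mark the letters ACGTG or GCGTG, the core that HIF-1 is known to bind, read on either strand. The regions are chr6:82774455-82774704 (minus strand) for Hk2, chr6:125165774-125166023 (minus strand) for Gapdh and chr7:46846832-46847081 (plus strand) for Ldha.
Hk2: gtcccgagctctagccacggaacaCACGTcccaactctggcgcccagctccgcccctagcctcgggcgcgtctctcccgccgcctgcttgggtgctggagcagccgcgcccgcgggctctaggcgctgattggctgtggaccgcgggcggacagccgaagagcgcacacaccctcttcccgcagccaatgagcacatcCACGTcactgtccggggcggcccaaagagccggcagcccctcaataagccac
Gapdh: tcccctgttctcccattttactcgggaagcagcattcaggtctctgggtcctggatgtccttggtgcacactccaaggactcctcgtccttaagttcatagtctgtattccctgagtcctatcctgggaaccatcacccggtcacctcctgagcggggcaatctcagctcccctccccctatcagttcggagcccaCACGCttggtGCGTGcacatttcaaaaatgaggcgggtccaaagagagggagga
Ldha: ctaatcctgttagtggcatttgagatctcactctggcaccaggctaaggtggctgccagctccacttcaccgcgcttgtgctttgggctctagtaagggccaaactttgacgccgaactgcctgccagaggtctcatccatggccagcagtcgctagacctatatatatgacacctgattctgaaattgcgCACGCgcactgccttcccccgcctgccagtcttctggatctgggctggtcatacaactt
Hk2, Gapdh and Pgk1 held 2 such matches, Ldha, Pfkl, Aldoa and Eno1 held 1, and Gpi1, Pkm and Tpi1 held 0. That is 7 of 10 members, with 1 region counted per member. Of all 32817 single regions of this length 38.6% held a match, and 41.5% of 27025 genes held one in at least 1 of their regions. These shares were not matched for base composition, and the members' regions were 54.4% (Ldha) to 69.6% (Hk2) G or C. No conclusion is therefore drawn from the 7 of 10. The RefSeq starts used for Aldoa, Tpi1, Pkm and Eno1 lay 37, 138, 208 and 244 bases from the start of the GENCODE transcript. A match is a description of letters, and nothing on binding was measured here.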

How the data were processed

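The authors deposited raw counts of reads per gene for 20 libraries, in the layout of STAR gene counts, and STAR, edgeR and GRCm38 are named per the submitters' processing notes. No source used here gives versions, the annotation release or the read length. The column that ignores strand was used, since both stranded columns held close to equal counts, so overlapping antisense genes cannot be told apart. Unmapped, multimapping, featureless and ambiguous reads (14.8% to 42.1%, 13.2% to 28.9%, 21.8% to 42.1% and 0.897% to 5.86% of reads) stayed out of library sizes. Symbols came from GENCODE M21, where 54809 of 54838 IDs matched. Of 2 IDs named Aldoa, the one at the RefSeq locus was used, and the other held 13 counts.

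All 20 libraries entered 1 edgeR 4.0.16 model (R 4.3.3, filterByExpr, TMM, robust quasi-likelihood, 1 coefficient per genotype, 15 residual degrees of freedom). It was also run on simulated counts with planted changes larger than that of any member in this model. That run therefore cannot show how well changes of the members' size would be called. The standard error is the log2 fold change divided by the root of F. Alternatives used limma 3.58.1 and DESeq2 1.42.0. Log2 CPM had a prior count of 2, and correlations used 100000 resamples. The members and lists were chosen with earlier results of these data known. All members are named with levels, with full statistics for the 3 of smallest p per contrast, the 2 of smallest F test p per list, and 5 similar genes with a mean of at least 10 CPM. Promoters are from RefSeq, where 10 of 10 members matched. Replicate pairs differed by 26.3 to 142 times the chi-square of sampling noise per degree of freedom, so none were copies. The labels name no molecular identifiers for the amplified cDNA, so reads are not separate molecules and low counts limit the precision. Each library is taken as 1 mouse, as the labels give sorting per mouse.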

Additional observations from a re-analysis of the deposited data

Results flagged for a closer look

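The check took 56 sets of 4 or 5 libraries, for 10 genes and 4 isozyme shares. It covered the 4 genotypes with at least 4 libraries. Of the 56 sets, 7 held a library far from the others of its genotype. The rule is meant to flag about 1 in 20 by chance. That rate was not worked out for skewed values such as CPM, so 7 of 56 cannot be set against it. Tpi1 stood at 402 CPM in hC4B/- 3, against 1.21 to 14.6 CPM in the other 3, and at 35.9 CPM in C4-/- 5, against 3.76 to 9.20 CPM. Eno1 stood at 158 CPM in hC4A/- 5, against 21.5 to 45.1 CPM, and at 178 CPM in hC4B/- 1, against 9.53 to 33.8 CPM. Aldoa stood at 77.2 CPM in hC4A/- 4, against 25.3 to 37.8 CPM, and at 76.8 CPM in WT 1, against 23.2 to 30.7 CPM. The Hk2 share of hexokinases was 56.2% in C4-/- 3, a broad library, against 89.7% to 99.5% in the other 4.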

How the results depend on the processing

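Over 28 other settings, 0 of 2520 member tests passed (smallest adjusted p 0.145). The counts of members called stayed at 0 in each contrast, also over every replicate left out (0 to 0). For Tpi1 in hC4B/- against WT (log2 fold change 3.25) DESeq2 gave no adjusted p, so that value could not pass. The F test of Tpi1 also had an adjusted p in only 26 of the other settings, against 27 for the other members. The 28 were RLE scaling, no filter, DESeq2, limma voom, the replicate block, fits of 2 genotypes, satellite-like genes left out, broad libraries left out and each of 20 libraries left out, and the fits of 2 genotypes gave no F test over all 5. With the replicate block 0 members passed in each contrast, and the F test called 0 genes in place of 15 (24 with RLE scaling, 697 unfiltered, 65 by DESeq2, 0 by voom, 22 without satellite-like genes, 2 without broad libraries). Replicate numbers were not taken as pairing the libraries. A correlation over 0.1 was found in 5 of 33 same-numbered pairs (-0.30 to 0.70). It was found in 12 of 124 differently numbered pairs (-0.71 to 0.71). The pairs share libraries, so these counts cannot decide whether the numbers pair them. Per contrast, DESeq2 called 1 to 58 genes, voom up to 6 and fits without a filter up to 65, in place of 0.

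Some log2 fold changes changed sign. Over the 28 other settings the members' median ran from -0.06 (unfiltered) to 0.81 in hC4B/- against WT. In hC4B/- against C4-/- it ran from -0.21 to 0.57, and in hC4A/A against WT from -0.53 to 0.05. In hC4A/- against hC4B/- it ran from -0.41 to 0.37, and in C4-/- against WT from -0.29 to 0.16. In hC4A/A against C4-/- it ran from -0.70 to 0.08. Tpi1 in hC4B/- against WT was -0.0098 without broad libraries and ran from -0.52 (without hC4B/- 3) to 3.33 over left-out replicates, and in hC4A/- against hC4B/- it was 0.76 and ran from -2.76 to 1.26 (without hC4B/- 3). Pfkl in hC4A/A against WT was -0.65 without broad libraries and ran from -0.56 (without hC4A/A 2) to 2.13. Eno1 in hC4B/- against C4-/- ran from -0.29 (without hC4B/- 1) to 1.65. Pgk1 in C4-/- against WT was -0.067 unfiltered and ran from -0.0076 (without C4-/- 1) to 0.74. The Pfkl share in hC4A/- minus C4-/-, 2.07 points, was -2.28 without broad libraries or C4-/- 3, -0.80 without C4-/- 1, and ran from -2.53 (without hC4A/- 3) to 10.1. The Ldha share in hC4B/- minus C4-/-, 4.82 points, was -0.49 without broad libraries. The isozyme count stayed at 0 under raw counts, unshared windows (chosen after seeing the data), broad libraries left out and each replicate left out (0 to 0). Pairs passing by rank were 0, 0 with a prior count of 0.5, and 3 with deviations from genotype means, whose p values may be too small. The causes of these changes were not tested. With 251 counts for Pgk1 and 513 for Pfkl over 20 libraries, small changes were not detectable. Larger changes could also go uncalled in well-counted members, because the libraries of a genotype spread widely. Hk2, with 18084 counts, still had a standard error of 0.77 to 1.07 on the log2 scale. The biological coefficient of variation was 0.649 (Gapdh) to 1.02 (Tpi1).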
